A study of Mus musculus with 12 samples.

Results

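A set of 10 genes of the endoplasmic reticulum (ER) unfolded protein response was followed across the series: Hspa5, Hsp90b1, Calr, Dnajb9, Sdf2l1, Creld2, Herpud1, Syvn1, Edem1 and Xbp1. They are known targets of the transcription factors ATF6 and XBP1 and were chosen by symbol, 10 of the 35385 gene symbols in the deposited tables. All 10 were among the 12009 genes that reached 1 TPM in at least 3 of the 12 libraries and were tested. TPM are transcript abundances scaled for transcript length and for the total of the library, which puts genes on 1 scale. Several abundant genes were listed low here, as given below, so levels of different genes are compared with caution.

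The libraries were poly(A) RNA from mouse oligodendrocyte progenitor cells (OPCs), the cells that give rise to the myelin-forming oligodendrocytes, made from pluripotent stem cells. The labels give no genotype or mouse strain, and no group carries a stated allele. Cells that had attached in differentiation-permissive medium were exposed for 4 h, in 4 groups of 3 libraries. The vehicle group received dimethyl sulfoxide (DMSO), and the others cetylpyridinium chloride (CPC), C12-C14-Alkyl(ethylbenzyl)dimethylammonium chloride (AEBDAC) or methyltrioctylammonium chloride (MTOAC). All 3 chemicals are quaternary ammonium compounds. CPC has a pyridinium ring, AEBDAC a benzyl ring, and MTOAC only alkyl groups on its nitrogen. Cells received each compound at that compound's IC75, the dose giving 75% inhibition, so concentrations were not matched, and the labels do not state them. The labels do not say that libraries of a group came from separate cultures, so the spread behind the p-values may be technical.

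When unfolded proteins gather in the ER, the membrane sensors ATF6, IRE1 and PERK signal to the nucleus. ATF6 is cut by Golgi proteases to release a transcription factor, IRE1 splices the Xbp1 mRNA, and PERK slows translation and raises the factor ATF4. ATF6 and spliced XBP1 raise genes for ER chaperones and for ER-associated degradation (ERAD), which passes misfolded proteins to the proteasome. Oligodendrocytes make large amounts of membrane protein and lipid for myelin and rely on this pathway during myelination.

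Each library listed 15431 to 16210 symbols above 0, and totals lay between 772637 and 797758 TPM. TPM are scaled to a fixed total, and these sums fall short of it, most in vehicle library 1. Part of the abundance is thus not listed, and its part in the values of single genes was not tested. TPM keep no depth, so the depth behind each value is unknown. Several abundant genes were listed low: Actb at 31.6 to 76.2 TPM, and the ER foldases P4hb at 0 to 3.29 TPM and Pdia3 at 0 to 3.29 TPM. Vehicle library 1 stood apart, with mitochondrially encoded genes summing to 86422 TPM against 147539 to 183001 TPM in the other 11. OPC markers were present, with Olig2, a lineage transcription factor, at 459 ± 96.3 TPM (SD, n = 3) in vehicle. The summed level of the 8 OPC markers was 1994 to 2360 TPM in vehicle, 1613 to 1746 TPM in CPC, 1478 to 1765 TPM in AEBDAC and 1281 to 1407 TPM in MTOAC. None of the 7 microglial markers was tested, and Cx3cr1 was at 0 in all 12 libraries.

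Of the 10 genes, Herpud1 rose in AEBDAC and MTOAC, and Syvn1 fell in MTOAC. No other member passed the test in any comparison. All comparisons against vehicle share the same 3 vehicle libraries. With limma on log2(TPM + 1) and Benjamini-Hochberg adjustment over all tested genes, 0 of 10 members were called in CPC, 1 of 10 in AEBDAC and 2 of 10 in MTOAC at an adjusted p under 0.05. Herpud1 and Syvn1 were also the only members with an unadjusted p under 0.05, in all 3 comparisons, where 13.6%, 19.2% and 24.4% of all tested genes had one in CPC, AEBDAC and MTOAC. These 2 of 10 members are near that background. Over all tested genes 0.0666%, 1.27% and 6.54% were called in the same comparisons. Of the genes called in MTOAC 95 were higher and 690 lower, against 213 and 217 with quantile normalization, and in AEBDAC 47 and 106 against 96 and 86. In CPC they were 4 and 4 against 12 and 4. In turn 3, 3 and 2 members had libraries that did not overlap those of vehicle, against 20.6%, 24.9% and 26.4% of all tested genes. Without vehicle library 1 the members called numbered 0, 1 and 2. The fits above took no account of the library number, by which the CPC and vehicle libraries were taken as paired. With the number as a block, 0 of 10 members and 184 of all genes were called in CPC.

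**Figure D1:**
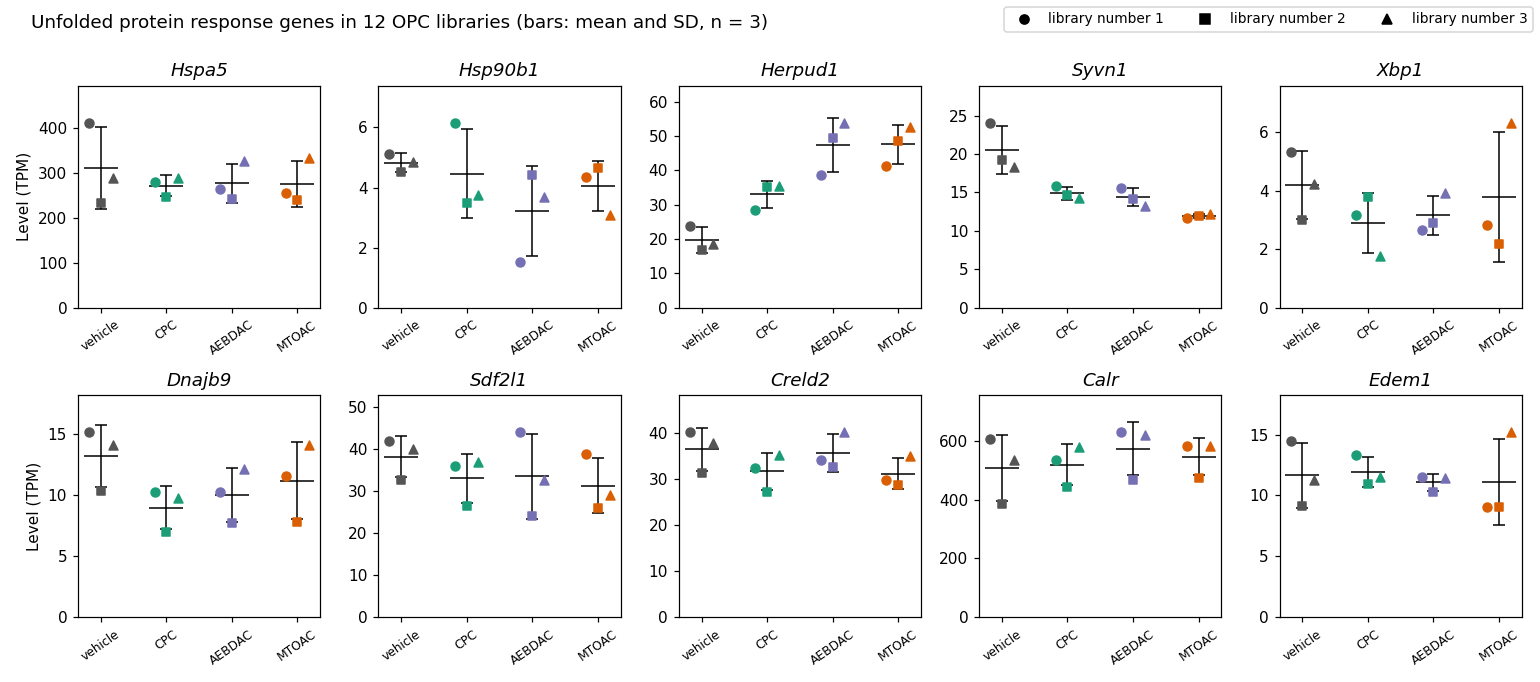
Level in TPM (y axis, linear, from 0) of each of the 10 genes in the 3 libraries of each group, with the symbol giving the library number and bars the mean and SD. Herpud1 lies between 16.8 and 23.9 TPM in vehicle and above 28 TPM in all treated libraries, Syvn1 falls to 11.7 to 12.2 TPM in MTOAC, and the treated and vehicle ranges of Hspa5 and Calr overlap.

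Herpud1 encodes a membrane protein of the ER that helps assemble the ERAD complex. It lies on chr8:94386438-94395377 on the plus strand of GRCm38 (GENCODE M21, ENSMUSG00000031770.16). The vehicle libraries stood at 23.9, 16.8 and 18.6 TPM and the CPC libraries at 28.4, 35.1 and 35.5 TPM. AEBDAC gave 38.6, 49.4 and 53.9 TPM, and MTOAC 41.3, 48.7 and 52.6 TPM. Every treated library was above every vehicle library, and the AEBDAC and MTOAC libraries also lay above all of CPC. On the log2(TPM + 1) scale the difference from vehicle was 1.22 ± 0.17 (SE) in AEBDAC (limma, adjusted p = 0.0151) and 1.23 ± 0.17 in MTOAC (limma, adjusted p = 0.00677). In CPC it was 0.72 ± 0.17 (limma, adjusted p = 0.154), which did not pass. The value in CPC depended on the scaling: with quantile normalization it was 0.90 (limma, adjusted p = 0.0497). Without vehicle library 1 the differences in CPC, AEBDAC and MTOAC were 0.86, 1.36 and 1.37 (limma, adjusted p = 0.180, 0.0160 and 0.00911). The call in MTOAC was kept when any 1 of the 6 libraries was left out. That in AEBDAC was lost without vehicle library 2 (adjusted p = 0.0786), AEBDAC library 2 (adjusted p = 0.104) or AEBDAC library 3 (adjusted p = 0.0987), with differences of 1.12 to 1.36 over the 6 fits.

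The 250 bases before the start of Herpud1 are printed because it is the member called in the most comparisons and its sequence differs from that of the others in motif content. They come from RefSeq (GRCm38.p6, chr8:94386179-94386428, plus strand), with motif matches in capitals. From the 5′ end, the first is TTGCATCA, a site to which ATF4 dimers bind, 112 to 105 bases before the start. The second is ERSE-II (ATTGGNCCACG), an ER stress response element first described in this gene's human counterpart, 52 to 42 bases before the start.
Herpud1 promoter: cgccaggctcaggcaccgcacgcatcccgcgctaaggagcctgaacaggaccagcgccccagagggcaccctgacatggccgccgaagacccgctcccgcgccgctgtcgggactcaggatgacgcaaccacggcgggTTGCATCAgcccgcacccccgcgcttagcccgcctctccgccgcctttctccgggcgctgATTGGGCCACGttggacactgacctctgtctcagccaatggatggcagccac

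Syvn1 encodes HRD1, the ubiquitin ligase at the centre of the main ERAD complex, and lies on chr19:6046576-6053712 on the plus strand (ENSMUSG00000024807.18). Its level was 24.1, 19.2 and 18.3 TPM in vehicle, 15.8, 14.6 and 14.2 TPM in CPC, and 15.6, 14.2 and 13.3 TPM in AEBDAC. The MTOAC libraries stood at 11.7, 11.9 and 12.2 TPM. All treated libraries lay below all vehicle libraries, and those of MTOAC below all others. The fitted difference from vehicle was -0.73 ± 0.14 (SE) on the log2(TPM + 1) scale in MTOAC (limma, adjusted p = 0.0165). It was -0.48 ± 0.14 in AEBDAC (limma, adjusted p = 0.101) and -0.43 ± 0.14 in CPC (limma, adjusted p = 0.238), which did not pass. The MTOAC call was lost without MTOAC library 1 (adjusted p = 0.0513) or library 2 (adjusted p = 0.0552), with differences of -0.80 to -0.61 over the 6 fits that leave out 1 library. Without vehicle library 1 it was -0.61 (limma, adjusted p = 0.0439).

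Other values moved with Syvn1. The summed OPC markers given above were also lowest in MTOAC. The largest part of the OPC sum in vehicle was Olig1, at 1194 ± 154 TPM (SD, n = 3). Sox10 stood there at 41.9 ± 20.9 TPM and Pdgfra at 31.4 ± 3.62 TPM. The sum does not show that each marker fell. Over the 12 libraries Cspg4 ranged from 21.3 to 48.9 TPM, with vehicle at 31.7 ± 10.9 TPM. Ptprz1 ranged from 266 to 415 TPM, with vehicle at 337 ± 66.0 TPM. In bulk RNA, fewer cells of a type and less RNA per cell cannot be told apart. The 8 neuronal markers summed to 434 to 483 TPM in vehicle, 333 to 400.2 TPM in CPC, 318 to 353 TPM in AEBDAC and 266 to 353 TPM in MTOAC. Most of that sum is 1 gene, Map2, at 411 ± 22.1 TPM (SD, n = 3) in vehicle, while Syp, Snap25, Syt1 and Stmn2 averaged 0.108 to 1.15 TPM there. The 7 astrocyte markers summed to 245 to 269 TPM in vehicle, 222 to 228 TPM in CPC, 247 to 256 TPM in AEBDAC and 194 to 236 TPM in MTOAC. Most of this sum is Aldoc, at 201 ± 33.96 TPM in vehicle, while Gfap, Aqp4 and Aldh1l1 averaged 0.519 to 0.743 TPM. The part of these marker lists in the result was not tested. Syvn1 shares 91 of its 4859 exonic bases with Mrpl49, a mitochondrial ribosomal protein gene on the opposite strand, and the library kit is not described as marking strand, so reads from the shared bases cannot be told apart. Mrpl49 stood at 43.1 ± 14.2 TPM (SD, n = 3) in vehicle, 22.3 ± 0.215 TPM in CPC, 20.8 ± 3.78 TPM in AEBDAC and 19.6 ± 1.85 TPM in MTOAC. Its difference from vehicle was -0.87 in CPC (limma, adjusted p = 0.143), which passed with the replicate block (adjusted p = 0.0442). It was -0.98 in AEBDAC (limma, adjusted p = 0.0452) and -1.05 in MTOAC (limma, adjusted p = 0.0168). The AEBDAC call of Mrpl49 was lost in 5 of the 6 fits that leave out 1 library, and the MTOAC call in 1, without MTOAC library 2 (adjusted p = 0.0661). The part of Mrpl49 in the Syvn1 values was not tested.

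The 250 bases before the start of Syvn1 (RefSeq, GRCm38.p6, chr19:6046326-6046575, plus strand) are printed as those of the other called member. The capitals mark its only match, the ER stress response element ERSE (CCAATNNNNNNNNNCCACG), 44 to 26 bases before the start. ERSE is a site of ATF6 with the factor NF-Y and is found in many chaperone genes.
Syvn1 promoter: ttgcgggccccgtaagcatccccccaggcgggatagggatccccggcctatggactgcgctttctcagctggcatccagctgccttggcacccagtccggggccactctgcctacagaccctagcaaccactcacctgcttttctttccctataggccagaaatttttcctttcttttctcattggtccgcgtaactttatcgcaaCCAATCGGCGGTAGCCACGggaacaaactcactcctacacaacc

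Edem1, on chr6:108828641-108859356, encodes a lectin-like protein that helps select misfolded glycoproteins for ERAD. Its libraries ranged from 9.07 to 15.2 TPM over all groups, with both ends of that range in MTOAC. The fitted log2 differences were 0.049 in CPC, -0.048 in AEBDAC and -0.077 in MTOAC, and none passed. The ERAD members did not move one way: Herpud1 was higher, Syvn1 lower, and Edem1 spread across the vehicle range.

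By the listed TPM, the chaperones made up the bulk of the members' RNA. Calr, on chr8:84841850-84846934, encodes the calcium-binding lectin chaperone calreticulin. Its libraries stood at 606, 386 and 534 TPM in vehicle, 536, 442 and 579 TPM in CPC, 630.5, 468 and 621 TPM in AEBDAC, and 584, 473 and 584 TPM in MTOAC. In each group library 2 was the lowest, and the treated ranges lay inside or across that of vehicle. The fitted log2 differences were 0.045, 0.18 and 0.12 in CPC, AEBDAC and MTOAC.

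Hspa5, on chr2:34771970-34777547, encodes BiP, the main ER chaperone, which also holds the sensors inactive. It stood at 413, 234 and 289 TPM in vehicle and at 280.0, 246 and 289 TPM in CPC. AEBDAC gave 265, 241 and 326 TPM, and MTOAC 255, 239 and 333 TPM. The lowest and the highest of all 12 libraries were both vehicle. The log2 difference was -0.16 in CPC (95% interval -0.60 to 0.28), -0.14 in AEBDAC (-0.58 to 0.30) and -0.15 in MTOAC (-0.60 to 0.29).

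Sdf2l1, which encodes an ER protein found in chaperone complexes, lies on chr16:17130138-17132383 and stood at 38.2 ± 4.91 TPM (SD, n = 3) in vehicle. The treated means were 33.03 ± 5.82, 33.5 ± 10.1 and 31.3 ± 6.62 TPM in CPC, AEBDAC and MTOAC. Creld2, on chr15:88819646-88826683, encodes a secreted and ER-resident protein induced by ER stress, and stood at 36.4 ± 4.65 TPM in vehicle against 31.6 ± 4.10, 35.7 ± 4.04 and 31.2 ± 3.32 TPM. Neither gene had a treated group clear of vehicle.

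Dnajb9, on chr12:44205559-44210326, encodes ERdj4, a cofactor of BiP. Its libraries were at 15.1, 10.3 and 14.1 TPM in vehicle and at 10.2, 6.95 and 9.72 TPM in CPC, so that CPC lay below vehicle without overlap. The difference there was -0.51 ± 0.25 (SE) log2 (limma, adjusted p = 0.392). The mean was 9.98 ± 2.20 TPM (SD, n = 3) in AEBDAC and 11.1 ± 3.15 TPM in MTOAC, and both groups overlapped vehicle.

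Hsp90b1, which encodes the ER chaperone GRP94, lies on chr10:86690209-86705509. It was listed at only 1.53 to 6.17 TPM, far below Hspa5. AEBDAC, at 1.53, 4.43 and 3.67 TPM, lay below vehicle, at 5.12, 4.50 and 4.85 TPM, with a log2 difference of -0.54 ± 0.30 (SE; limma, adjusted p = 0.353). Of its 4032 exonic bases, Hsp90b1 shares 415 with a pseudogene on the opposite strand, 1810014B01Rik, and 84 with Gm15344. The part of these overlaps in the low values was not tested, and the level of Hsp90b1 is uncertain.

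Xbp1, on chr11:5520659-5525893, encodes the factor that is itself activated by IRE1 splicing. It was also listed low, at 1.76 to 6.33 TPM over the 12 libraries. Vehicle stood at 5.33, 3.004 and 4.23 TPM and MTOAC at 2.84, 2.18 and 6.33 TPM, and no treated group was clear of vehicle. The tables give 1 value per gene, so spliced and unspliced Xbp1 are not separated here.

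Over these 8 members the log2 differences from vehicle lay between -0.54 and 0.18 in the 3 comparisons, with adjusted p-values from limma between 0.353 and 0.948. The lowest and highest bounds of all their 95% intervals were -1.20 and 0.59, and single genes had narrower intervals. Each interval included 0, so changes inside a gene's own interval could not be told from none. Most differences were below 0, 6 of 8 in CPC, 7 of 8 in AEBDAC and 7 of 8 in MTOAC, but so was the median of all tested genes, at -0.17, -0.16 and -0.22. Relative to that median gene, the median of the 10 members was -0.011, -0.017 and 0.017. In vehicle library 1 all 10 members were at the highest of the vehicle values, as were 59.4% of all tested genes. Without that library 5, 4 and 5 of the 8 differences were below 0, and none was called (lowest limma adjusted p = 0.469). After rescaling without mitochondrial genes vehicle library 1 was the highest for 6 of 10 members and for 49.5% of genes.

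**Figure D2:**
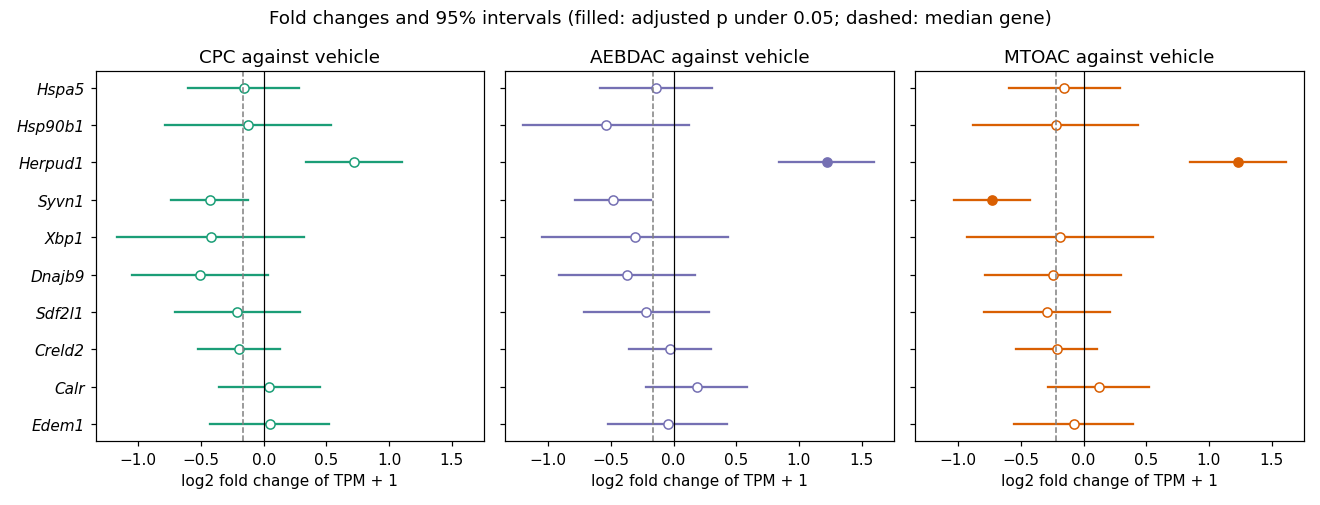
Fitted log2 fold change of TPM + 1 against vehicle (x axis) of the 10 genes, one panel per compound, with 95% intervals. Filled points passed an adjusted p of 0.05, and the dashed line is the median of all tested genes. Herpud1 stands to the right at 0.72, 1.22 and 1.23, Syvn1 to the left at -0.43, -0.48 and -0.73, and the intervals of the other 8 genes include 0.

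Between compounds, 0 of 10 members and 0 of all tested genes were called in AEBDAC against CPC (0% called), MTOAC against CPC (0%) and MTOAC against AEBDAC (0%). Unadjusted limma p-values under 0.05 were found for 211, 449 and 307 genes and for 1, 1 and 0 members. The member was Herpud1, which was 0.50 log2 higher in AEBDAC than in CPC (95% interval 0.12 to 0.88, limma adjusted p = 1) and 0.51 higher in MTOAC than in CPC (0.13 to 0.89, limma adjusted p = 1). Between MTOAC and AEBDAC, which differ by the benzyl ring among other groups, Herpud1 differed by 0.012 (-0.37 to 0.39). Syvn1 was lower in MTOAC than in CPC by -0.30 (-0.60 to 0.0072) and than in AEBDAC by -0.25 (-0.55 to 0.057), neither of which passed. Concentrations were not matched, and these intervals leave room for differences of either sign in Syvn1.

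A second pattern ran with the library number rather than the treatment. For Hspa5, Calr, Dnajb9, Sdf2l1 and Creld2 library 2 was the lowest of its group in all 4 groups, as it was for 13.4% of all tested genes. These 5 genes were picked out after their values were seen, and no test was made. Of the sum of squares of log2(TPM + 1) over the 12 libraries, the library number held 80.2% for Calr, 69.5% for Sdf2l1, 59.4% for Dnajb9, 53.9% for Creld2 and 46.8% for Hspa5. The treatment group held 89.2% for Herpud1 and 87.5% for Syvn1. Taken separately, the median share over the 10 members was 41.0% for the number and 23.6% for the group, against medians of 21.8% and 29.7% over all tested genes. The labels do not say whether a number marks a shared culture or day.

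**Figure D3:**
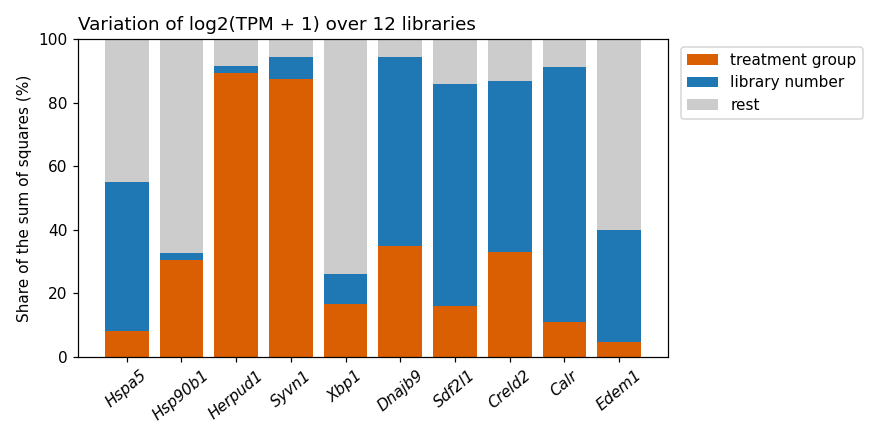
Share of the sum of squares of log2(TPM + 1) over 12 libraries (y axis, percent) that goes with the treatment group, with the library number and with neither, for each of the 10 genes. Herpud1 and Syvn1 are mostly group (89.2% and 87.5%), while Calr and Sdf2l1 are mostly library number (80.2% and 69.5%).

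Across the 12 libraries Hspa5 followed the mean of the other members most closely (Pearson r = 0.94) and Herpud1 ran against it (r = -0.30). Herpud1 and Syvn1 had r = -0.82 with each other. Among other tested genes averaging 5 TPM or more, those most like the mean of the standardised members were Epdr1 (r = 0.965), Ube3c (0.963), Wls (0.961), Tmem206 (0.958) and Nnt (0.958). These correlations are over libraries that share groups and numbers and are given as a description.

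The other genes of the response were read by lists of their roles. Of the sensors and the proteases that cut ATF6, 5 were tested and 0 were called by limma with any compound. With each compound 1 of these 5 had an unadjusted p under 0.05. Such a p was found for 13.6%, 19.2% and 24.4% of all tested genes in CPC, AEBDAC and MTOAC. Mbtps1, the protease that makes the first cut in ATF6, stood at 45.8 ± 7.91 TPM (SD, n = 3) in vehicle and 29.4 ± 7.60 TPM in MTOAC, a log2 difference of -0.64 (limma, adjusted p = 0.0543). It passed without MTOAC library 3, at -0.83 (limma, adjusted p = 0.0235). It also passed with the replicate block (limma, adjusted p = 0.0303), which called 1904 of all tested genes. With quantile normalization it was -0.43 (limma, adjusted p = 0.0841). Its differences were -0.47 in CPC, where quantile normalization gave -0.29, and -0.46 in AEBDAC. The second protease, Mbtps2, differed by -0.58 in AEBDAC and -0.49 in MTOAC, and without vehicle library 1 by -0.29 and -0.21. Without vehicle library 2 these were -0.88 and -0.80, without MTOAC library 1 the latter was -0.29, and with quantile normalization they were -0.38 and -0.23. Atf6b, a relative of ATF6, differed by -1.57 in CPC, with vehicle libraries from 2.37 to 12.2 TPM, and by -0.95 without vehicle library 1. Atf6 itself stood at 9.72 ± 1.44 TPM in vehicle and 9.70 ± 1.73, 10.8 ± 2.73 and 11.5 ± 4.16 TPM in the treated groups.

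Of 19 other ER chaperones and foldases tested, 0 were called by limma with any compound, and 1, 1 and 3 had an unadjusted p under 0.05 in CPC, AEBDAC and MTOAC, below the shares of all tested genes (13.6%, 19.2% and 24.4%). The smallest p-values belonged to Dnajc10, a reductase and cofactor of BiP, which stood at 47.3 ± 9.90 TPM in vehicle. Its log2 difference was -0.52 in CPC, -0.69 in AEBDAC (limma, adjusted p = 0.111) and -0.66 in MTOAC (limma, adjusted p = 0.0797). With quantile normalization it was -0.34 in CPC. Next came Dnajc3 in CPC at -0.36 and Cnpy2 in AEBDAC at -0.32, which without vehicle library 1 were -0.23 and -0.18, and with quantile normalization -0.16 and -0.21. Erp44, a retention factor of the early secretory pathway, differed by 0.46 in MTOAC (limma, adjusted p = 0.182), and passed with quantile normalization at 0.66 (limma, adjusted p = 0.0494). Canx, the membrane-bound partner of calreticulin, stood at 345 ± 57.7 TPM in vehicle and 348 ± 16.6, 379 ± 6.66 and 372 ± 29.9 TPM in CPC, AEBDAC and MTOAC. With the replicate block 0, 2 and 2 of the 19 were called in CPC, AEBDAC and MTOAC, all lower. Over all tested genes 184, 1072 and 1904 were called with it. Dnajc10 passed with the block in AEBDAC (limma, adjusted p = 0.0281) and MTOAC (limma, adjusted p = 0.0216).

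Of 15 other ERAD genes tested, 0 were called by limma in CPC and AEBDAC, and 2 fell in MTOAC. In MTOAC 6.54% of all tested genes were called. An unadjusted p under 0.05 was found for 4, 2 and 7 of the 15 in CPC, AEBDAC and MTOAC, against 13.6%, 19.2% and 24.4% of all tested genes. Erlec1, a lectin of the same complex as HRD1, went from 8.24 ± 1.59 to 4.06 ± 0.643 TPM, a log2 difference of -0.86 (limma, adjusted p = 0.0408), and with quantile normalization -0.57 (limma, adjusted p = 0.146). Vcp, the ATPase that pulls proteins out of the membrane, went from 388 ± 93.9 to 262 ± 18.3 TPM, or -0.54 (limma, adjusted p = 0.0492). Both calls were lost in all 6 fits that leave out 1 library, and without vehicle library 1 the Vcp difference was -0.35 (limma, adjusted p = 0.0797). Sel1l, the partner of HRD1, was the ERAD gene with the smallest p in CPC, from 16.7 ± 6.71 to 7.06 ± 1.83 TPM (limma, adjusted p = 0.240). With the replicate block 0, 1 and 5 of the 15 were called in CPC, AEBDAC and MTOAC, all lower. Over all tested genes 184, 1072 and 1904 were called with it.

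Of 19 genes of translocation into the ER and transport out of it, 0 were called by limma with any compound, and 1 had an unadjusted p under 0.05 with each, below the shares of all tested genes given above. Sec31a, a coat protein of vesicles that leave the ER, differed by 0.41 in AEBDAC and 0.32 in MTOAC. Sec23b, of the same coat, differed by -0.70 in CPC, and by -0.46 without vehicle library 1 or -0.40 without CPC library 3. Sec24d differed by -1.55 in CPC, but its vehicle libraries ranged from 0.419 to 12.4 TPM, and without vehicle library 1 the difference was -0.51. The signal peptidase subunit Spcs1 differed by -0.26 in AEBDAC, and by -0.096 without vehicle library 1. Its partner Spcs3 differed by -0.28 in MTOAC, by -0.17 without vehicle library 1, -0.12 without MTOAC library 2 and -0.50 without MTOAC library 3, and by -0.048 with quantile normalization. Sec31a in MTOAC was at 0.53 with quantile normalization. None of these values passed.

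Among the listed genes, the list of the PERK branch, targets of ATF4 and CHOP, held most of those called. It was chosen with earlier results of these data known and holds genes already seen to rise, so its calls are given as a description. Of 12 tested, 2 rose in CPC, 4 in AEBDAC and 5 in MTOAC, and none fell. Without vehicle library 1 the counts were 1, 3 and 4. Over all tested genes 0.0666%, 1.27% and 6.54% were called in either direction with all libraries, with 4, 47 and 95 genes higher. In CPC against vehicle the libraries were taken as paired by number. With the replicate block 4 of the 12 were called there, 0 of the 10 members and 184 of all genes. Chac1, a glutathione-degrading enzyme, rose from 5.66 ± 2.30 TPM in vehicle to 39.6 ± 6.46, 54.2 ± 6.86 and 51.4 ± 8.02 TPM in CPC, AEBDAC and MTOAC (limma, adjusted p = 0.00425, 0.000531 and 0.000600). Trib3, a pseudokinase, rose from 3.73 ± 1.31 to 20.4 ± 5.45, 30.7 ± 9.70 and 26.7 ± 1.74 TPM. The CPC call of Trib3 was lost in 4 of the 6 fits that leave out 1 library, namely without vehicle library 1 (adjusted p = 0.0857), vehicle library 2 (0.0643), CPC library 2 (0.166) and CPC library 3 (0.116).

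Also called were Asns and Atf4 in AEBDAC and MTOAC, and Sesn2 in MTOAC. Atf4 rose from 176 ± 43.8 to 423 ± 36.5 TPM in AEBDAC and 366 ± 65.4 TPM in MTOAC. Its AEBDAC call was lost in 4 of the 6 fits that leave out 1 library, with adjusted p from 0.0511 to 0.135, and Sesn2 lost its call in 5 of 6. The MTOAC call of Atf4 was lost without MTOAC library 2 (adjusted p = 0.0640). Ddit3, which encodes CHOP, stood at 8.46 ± 4.09 TPM in vehicle and 9.04 ± 0.873, 10.7 ± 0.208 and 15.1 ± 5.80 TPM, with no call. Relative to the median gene the median of the PERK list was 0.77, 1.16 and 1.21 log2 in CPC, AEBDAC and MTOAC. That list was chosen with rises of some of its genes known, so these medians are no test. The medians of the other 4 lists lay between -0.30 and 0.22, and those of the 10 members are given above. These genes are also induced by other kinases than PERK, and PERK itself (Eif2ak3) was below the filter and not tested.

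**Figure D4:**
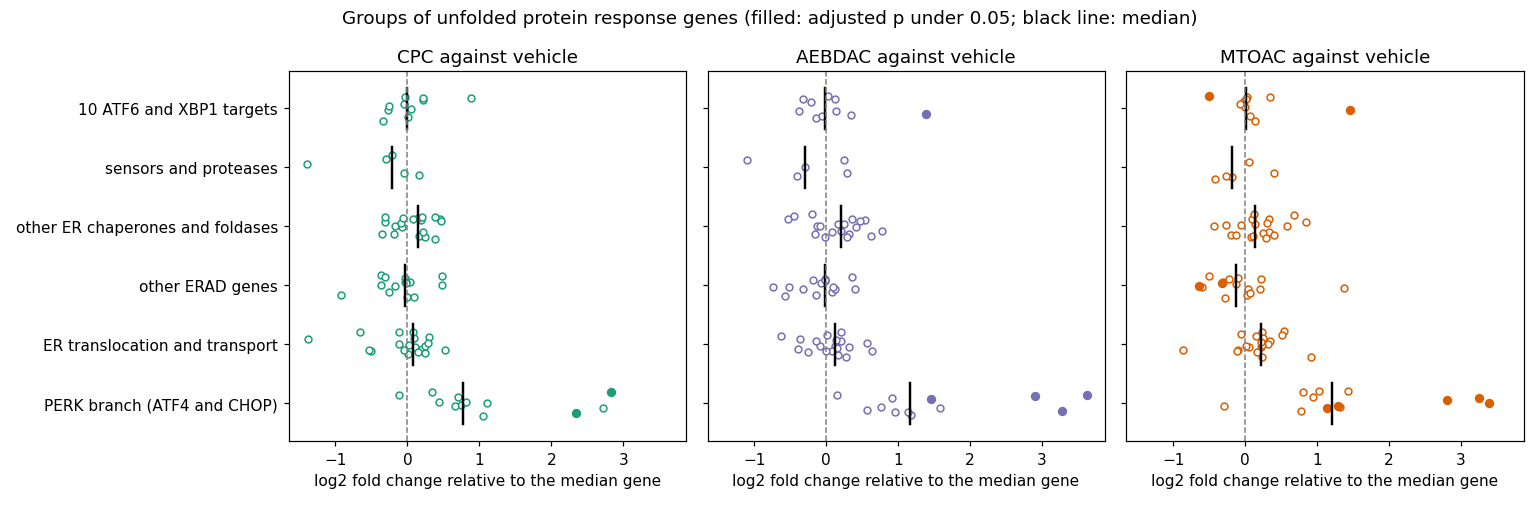
Log2 fold change less that of the median tested gene (x axis) of each gene in 6 lists of the unfolded protein response, one panel per compound. Filled points passed an adjusted p of 0.05 and black lines are list medians. The PERK list lies to the right with medians of 0.77, 1.16 and 1.21, and the other medians lie between -0.30 and 0.22. The PERK list holds genes already seen to rise in these data.

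Motifs in the promoters were counted in all 32851 RefSeq windows of 300 bases, from 250 before to 50 after a start, on both strands, and 10 of 10 members had a window. ERSE was found in 5 of 10 members and in 0.119% of all windows. The members were chosen as known targets of ATF6 and XBP1, so their share is a description and no test. ERSE-II was found in Herpud1 alone among the members and in 0.0365% of all windows. The core of the XBP1 site (TGACGTGG) was in no member's window and in 0.676% of all, which says only that these letters are absent there. The ATF4 site TTGCATCA was in Herpud1 alone among the members and in 0.895% of all windows. ERSE and ERSE-II share the letters CCACG, and no matches in a member overlapped.

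The 6 ERSE matches are set out to show the letters between the fixed ends, in the called Syvn1 and in members not called. The fixed letters are the same in all because the search required them, so they show no likeness. Each match is written 5′ to 3′ on the strand of the motif, with the fixed letters in capitals. On GRCm38.p6 they lie at chr19:6046532-6046550 (plus) for Syvn1, chr2:34772025-34772043 (plus) for Hspa5, chr8:84847075-84847093 (plus) for Calr, chr15:88819520-88819538 (minus) for Creld2, and chr10:86705638-86705656 (minus) and chr10:86705533-86705551 (plus) for Hsp90b1.
Syvn1: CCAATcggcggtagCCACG
Hspa5: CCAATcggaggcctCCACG
Calr: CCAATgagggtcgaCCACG
Creld2: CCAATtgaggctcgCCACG
Hsp90b1, farther match: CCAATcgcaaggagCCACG
Hsp90b1, nearer match: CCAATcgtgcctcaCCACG

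Read by motif, the calls fell as follows. Of the 5 with an ERSE match, Syvn1 fell in MTOAC and Hspa5, Calr, Creld2 and Hsp90b1 were not called. Of the 5 without one, Herpud1 rose, and Xbp1, Dnajb9, Sdf2l1 and Edem1 were not called. Only exact matches were counted. The last bases printed for Herpud1, ccaatggatggcagccac, follow ERSE up to its last letter. A match is a description of the letters in a window and shows no binding in these cells.

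**Figure D5:**
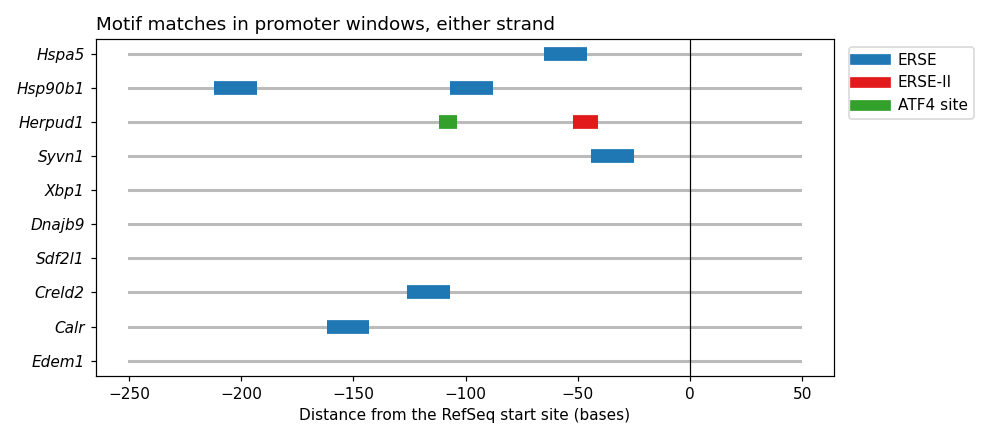
Position of motif matches relative to the RefSeq start (x axis, bases, 0 is the start) in the window of each of the 10 genes, on either strand. ERSE matches (blue) lie in Hspa5, Hsp90b1, Syvn1, Creld2 and Calr, and Herpud1 holds the ERSE-II (red) and ATF4 (green) matches.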

How the data were processed

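Poly(A) RNA of 12 OPC libraries was sequenced as 150 bp pairs, per the labels' protocols. Salmon and the build mm10 are named in the submitters' processing notes, without the Salmon version or the annotation. TPM per gene symbol were deposited by the authors, 1 table per library, and keep no depth. The 12009 genes that reached 1 TPM in 3 or more libraries were fitted with limma 3.58.1 (R 4.3.3) on log2(TPM + 1), with trend and robust moderation, over 4 group means of all 12 libraries. Tests were two-sided, with Benjamini-Hochberg adjustment over all tested genes within a comparison, for 6 comparisons. For single values no exact permutation test was run, since 3 libraries against 3 allow no p under 0.1. The code was tested on simulated data.

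Alternatives were a pseudocount of 0.1, no filter, quantile normalization, rescaling without mitochondrial genes, a replicate block, the same with quantile normalization, only the 2 groups compared, and each library left out. The titles number the libraries 1 to 3. Libraries of the same number were each taken as the deviation from the group mean. They correlated at 0.34, 0.31 and 0.23 for CPC and vehicle, and at 0.28, 0.42 and 0.23 for AEBDAC and CPC. For MTOAC and AEBDAC the values were 0.33, 0.36 and 0.30, so these 3 comparisons were taken as paired. The main fit had no block, and the replicate block is given as an alternative. No pair of libraries was identical.

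The members and lists were chosen with earlier results of these data known, and the PERK list holds genes already seen to rise. All members are named, with the 2 genes of smallest p per other list and compound against vehicle, and the 5 genes most like the mean of the members. Other called list genes, Mrpl49, Atf6, Canx, P4hb, Pdia3 and Ddit3 were named after their values were seen. Promoters were to be printed for called members only, and the short ERSE matches of the others were added. Positions are from GENCODE M21 and promoters from RefSeq, both on GRCm38, the assembly of mm10.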

Additional observations from a re-analysis of the deposited data

How the results depend on the processing

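Each comparison was refitted under 13 alternatives, 78 fits in all. Herpud1 and Syvn1 kept their direction against vehicle in all 78 of their alternative values, and 85 of 780 values of members changed sign, none of them called. Depth is unknown, and 3 libraries a group limit the precision. With only the 2 groups compared, the members called were 0 in AEBDAC and 0 in MTOAC (Herpud1 adjusted p = 0.142 and 0.0695, Syvn1 in MTOAC 0.124), and all genes called were 0, 3 and 17 in CPC, AEBDAC and MTOAC, 1 in AEBDAC against CPC and 1 in MTOAC against AEBDAC, from fewer samples. Without the filter 38 genes were called in AEBDAC, 404 in MTOAC, 1 in AEBDAC against CPC and 1 in MTOAC against CPC. Leaving out 1 library gave 1 to 5 genes in CPC, 9 to 104 in AEBDAC, 149 to 573 in MTOAC and 0 to 1 in MTOAC against CPC, and 0 to 1 members in AEBDAC and 1 to 2 in MTOAC.

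With the replicate block 184, 1072 and 1904 genes were called in CPC, AEBDAC and MTOAC against vehicle. Members called with it were 2 in AEBDAC, where Syvn1 passed (adjusted p = 0.0362). The correlations of same-numbered libraries were over 0.1 for all 3 numbers in CPC against vehicle, AEBDAC against CPC and MTOAC against AEBDAC only. They were 0.078, 0.25 and 0.035 in AEBDAC against vehicle, and -0.026, 0.35 and -0.19 in MTOAC against vehicle. In MTOAC against CPC they were 0.17, 0.40 and 0.091. This cutoff cannot decide whether a number marks a shared culture or day, which the labels do not say. The block changed no other call of a member. With quantile normalization 1 member, Herpud1, was called in CPC, and 16 and 430 genes in CPC and MTOAC. With the block and quantile normalization it was 1 member in CPC (Herpud1, adjusted p = 0.0193) and 115, 907 and 1194 genes. The cause was not tested.

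Values that changed sign follow. With quantile normalization, with or without the replicate block, the log2 difference from vehicle was 0.099 for Hsp90b1 in CPC, 0.13 for Creld2 and 0.14 for Edem1 in AEBDAC, and 0.061 for Hsp90b1, 0.11 for Xbp1, 0.0028 for Dnajb9, 0.0016 for Creld2 and 0.18 for Edem1 in MTOAC. Hspa5 was at -0.012 in AEBDAC against CPC, Creld2 at 0.013 in MTOAC against CPC, and Hspa5 at 0.014, Calr at 0.0066 and Edem1 at 0.042 in MTOAC against AEBDAC. Rescaled without mitochondrial genes, Hspa5 was at -0.0053, -0.0042 and 0.0011 in AEBDAC against CPC, MTOAC against CPC and MTOAC against AEBDAC.

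Leaving out 1 library in turn, the log2 differences of members whose sign turned ranged as follows. In CPC against vehicle, Hspa5 went from -0.35 to 0.061, Hsp90b1 from -0.33 to 0.0015, Calr from -0.14 to 0.18 and Edem1 from -0.099 to 0.21. In AEBDAC against vehicle, Hspa5 went from -0.33 to 0.081, Creld2 from -0.13 to 0.045, Calr from -0.0025 to 0.32 and Edem1 from -0.20 to 0.11. In MTOAC against vehicle, Hspa5 went from -0.34 to 0.068, Xbp1 from -0.55 to 0.057, Calr from -0.065 to 0.26 and Edem1 from -0.31 to 0.081. In AEBDAC against CPC, Hspa5 went from -0.10 to 0.11, Syvn1 from -0.11 to 0.00071, Xbp1 from -0.11 to 0.28, Dnajb9 from -0.016 to 0.30 and Sdf2l1 from -0.22 to 0.21. In MTOAC against CPC, Hspa5 went from -0.14 to 0.10, Hsp90b1 from -0.22 to 0.11, Xbp1 from -0.12 to 0.48, Sdf2l1 from -0.24 to 0.037, Creld2 from -0.12 to 0.064 and Calr from -0.035 to 0.18. In MTOAC against AEBDAC, Hspa5 went from -0.16 to 0.11, Hsp90b1 from -0.015 to 0.54, Herpud1 from -0.12 to 0.11, Xbp1 from -0.24 to 0.36, Dnajb9 from -0.044 to 0.34, Sdf2l1 from -0.29 to 0.14, Calr from -0.20 to 0.040 and Edem1 from -0.26 to 0.086.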
